A study of Mus musculus with 6 samples.

Results

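Bmp2, Acvr1, Tgfbr2, Smad5, Smad9 and Msx2 carry a bone morphogenetic protein (BMP) or TGF-beta signal from the ligand to a target gene. Every array row annotated with 1 of these 6 symbols alone was taken, which gave 8 rows, because Tgfbr2 and Smad5 had 2 rows each. The table held 8960 genes measured under a single symbol. The 6 genes had been selected on their GH over PBS ratios in these same arrays, at 24 hours, at 6 hours or over both, so those ratios are given as a description and are not tested here. The difference between the times was not itself used to choose them. It is computed from the same ratios, however, so it and its test are not free of that choice.

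The samples were bone of C57BL/6J-Ghrhr<lit> (lit/lit) mice, in which the receptor for growth hormone-releasing hormone is disrupted, so that both the treated and the control animals lack normal growth hormone (GH). They were 4 weeks old and were injected once under the skin with GH, at 4 mg per kg, or with phosphate-buffered saline (PBS) as the control. Bone was collected 24 hours after GH (replicates 4 to 6) or 6 hours after GH (replicates 1 to 3), and each array set the pooled RNA of 2 GH mice against that of 2 PBS mice. Values are log2 ratios of GH over PBS, a direction that is likely from the dyes in the labels (Cy5 for GH, Cy3 for PBS) but is not stated in the table. No dyes were swapped, so a dye effect of a row adds to its ratio at either time and cancels in the difference only where all arrays share it.

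BMPs bind pairs of type I and type II receptor kinases, and the type I receptor then phosphorylates the SMAD proteins of the BMP branch, which enter the nucleus with SMAD4. TGF-beta binds its own type II receptor first and signals through other SMADs. In bone, BMP signalling drives cells towards the osteoblast fate, while TGF-beta stored in the matrix couples resorption to formation. The arrays measured transcripts and not phosphorylated SMADs, so signalling itself was not measured.

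Of the 6 genes, 5 had start sites in the RefSeq promoter table (GRCm38.p6), with 7 windows of 250 bases before to 50 after a start. Printed here are the 250 bases before the start of the genes with the highest and the lowest ratio among those with 1 row and of the target gene, each read 5′ to 3′ on the gene's strand. They lie at chr2:58566829-58567078 (minus strand, Acvr1), chr3:54755332-54755581 (plus strand, Smad9) and chr13:53472781-53473030 (minus strand, Msx2). Capitals mark a match to GGCGCC, a BMP-type SMAD motif that reads the same on both strands.
Acvr1: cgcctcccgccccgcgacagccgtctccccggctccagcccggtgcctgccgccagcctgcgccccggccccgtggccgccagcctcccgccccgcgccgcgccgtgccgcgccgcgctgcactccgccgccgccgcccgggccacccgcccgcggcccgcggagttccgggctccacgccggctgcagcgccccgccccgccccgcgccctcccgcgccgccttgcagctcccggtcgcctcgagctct
Smad9: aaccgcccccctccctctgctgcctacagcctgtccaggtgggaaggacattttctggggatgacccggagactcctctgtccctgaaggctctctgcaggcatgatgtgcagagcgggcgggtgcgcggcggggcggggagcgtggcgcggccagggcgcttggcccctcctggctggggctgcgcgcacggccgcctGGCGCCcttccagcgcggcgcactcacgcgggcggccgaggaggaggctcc
Msx2: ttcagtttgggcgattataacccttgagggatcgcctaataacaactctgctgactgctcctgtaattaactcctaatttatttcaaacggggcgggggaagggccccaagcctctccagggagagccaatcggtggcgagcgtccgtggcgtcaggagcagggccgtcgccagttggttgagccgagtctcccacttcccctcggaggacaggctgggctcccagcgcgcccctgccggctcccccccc

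Positions are counted from the start, with -1 for the base before it. The GGCGCC match of Smad9 began at -51. The same letters began at -19 of 1 of the 3 Smad5 starts, inside the window of a neighbouring start too, and 11.9% of all 32851 windows held them. CAGAC or its complement GTCTG, bound by SMAD3 and SMAD4, began at -160 of the Tgfbr2 start and at -21 of another Smad5 start, beside 49.6% of all windows. TTCNNNGAA, the STAT motif through which GH acts on its targets, was in 0 of the 7 windows and in 8.3% of all windows. These windows were searched on both strands, the 3 motifs overlapped nowhere in them, and a match is a description of the sequence only. The Acvr1 window was 83.7% G and C, that of Smad9 73.7% and that of Msx2 61.0%, against a median of 52.7% over all windows.

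Acvr1 (a type I receptor), row 2 of Smad5 and Msx2 lay above 0 on every array with a value. Smad9 and Bmp2 lay below 0 on all 6 arrays, and both Tgfbr2 rows lay below 0 on 5 of 6. Row 1 of Smad5 lay close to 0 at 24 hours and above 0 on all 3 arrays at 6 hours. Of the 8 member rows 3 had a fitted ratio above 0 at 24 hours and 4 at 6 hours, with medians of -0.20 and 0.08. Over all 19326 rows tested 50% had a fitted ratio above 0 at 24 hours and 47.9% at 6 hours, with medians of -0.00 and -0.02. All 8 rows had values on at least 2 arrays of each time, the filter used for the fit, and 7 had a value on all 6.

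**Figure D1:**
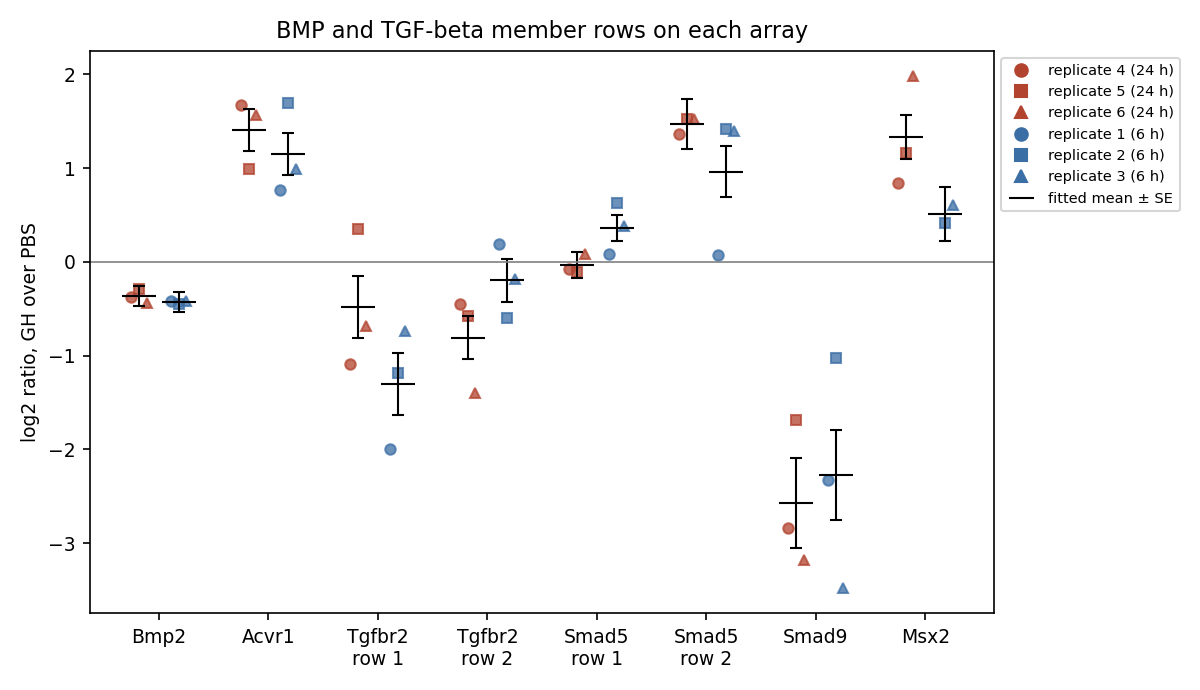
Log2 ratio of GH over PBS (vertical axis) for the 8 member rows, with 1 point for each array, 24 hours left of 6 hours for each row, and the fitted mean with its moderated standard error in black. Smad9 and Bmp2 lie below 0 on 6 of 6 arrays, Acvr1 and row 2 of Smad5 above 0 on 6 of 6, and Msx2 above 0 on 5 of 5.

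Bmp2 encodes a secreted ligand that induces osteoblast differentiation and was the member whose arrays differed least. Its log2 ratios were -0.38, -0.29 and -0.43 at 24 hours (replicates 4, 5 and 6) and -0.42, -0.45 and -0.42 at 6 hours (replicates 1, 2 and 3). The times overlapped, and the whole range ran from -0.45 to -0.29. The means were -0.37 ± 0.07 at 24 hours and -0.43 ± 0.02 at 6 hours (SD, n = 3 arrays each), or 1.29-fold and 1.35-fold lower with GH than with PBS. A shift of this size was common, since 25.9% of all tested rows had a lower ratio at 24 hours and 16.6% at 6 hours.

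Acvr1 encodes ALK2, a type I receptor for several BMPs, and activating mutations of it in humans turn muscle and connective tissue to bone. Its log2 ratios were 1.67, 0.99 and 1.56 at 24 hours and 0.77, 1.70 and 0.99 at 6 hours. All 6 arrays were above 0, the times overlapped, and replicate 1 was the lowest. The means were 1.41 ± 0.37 at 24 hours and 1.15 ± 0.49 at 6 hours (SD, n = 3 each), which are 2.65-fold and 2.22-fold higher with GH. At 24 hours 97.3% of tested rows had a lower ratio than Acvr1, and at 6 hours 96.9%.

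Tgfbr2 encodes the type II receptor that binds TGF-beta and activates the type I receptor. Row 1, annotated through a GenBank record, had log2 ratios of -1.09, 0.34 and -0.69 at 24 hours and -2.00, -1.18 and -0.74 at 6 hours. Replicate 5 was the 1 array above 0, and replicate 1 was the lowest. Row 2, annotated through expressed sequence tags (ESTs), had -0.45, -0.58 and -1.40 at 24 hours and 0.19, -0.60 and -0.18 at 6 hours. Here replicate 6 was the lowest and replicate 1 the 1 array above 0.

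The means of Tgfbr2 row 1 were -0.48 ± 0.74 at 24 hours and -1.31 ± 0.64 at 6 hours (SD, n = 3 each). Those of row 2 were -0.81 ± 0.51 and -0.20 ± 0.39. Row 1 was thus nearer 0 at 24 hours and row 2 nearer 0 at 6 hours, and in both rows the arrays of the times overlapped. Averaged over the rows, Tgfbr2 had -0.64 at 24 hours and -0.75 at 6 hours, which hides this opposite order. Row 2 minus row 1 ran from -0.92 on replicate 5 to 2.19 on replicate 1.

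Smad5 encodes a SMAD that BMP type I receptors phosphorylate. Both of its rows are annotated through ESTs. Row 1 had log2 ratios of -0.07, -0.10 and 0.08 at 24 hours and 0.08, 0.63 and 0.38 at 6 hours. Row 2 had 1.36, 1.53 and 1.52 at 24 hours and 0.07, 1.42 and 1.40 at 6 hours. In row 2, 5 of 6 arrays lay close together between 1.36 and 1.53, and replicate 1 stood near 0.

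Row 1 of Smad5 averaged -0.03 ± 0.10 at 24 hours and 0.37 ± 0.27 at 6 hours (SD, n = 3 each). Row 2 averaged 1.47 ± 0.09 and 0.96 ± 0.77, or 2.77-fold and 1.95-fold higher with GH, and its 6-hour mean was 1.41 without replicate 1. The gap between the rows, row 2 minus row 1, was 1.5 ± 0.11 at 24 hours and 0.60 ± 0.54 at 6 hours, and on replicate 1 it was -0.01. The mean of both rows, 0.72 at 24 hours and 0.66 at 6 hours, describes neither row. Among the 1600 genes with 2 tested rows, the median absolute gap was 0.56 at 24 hours and 0.42 at 6 hours, and the rows had opposite signs for 48.9% and 49.9% of them. Across the array, then, rows of 1 gene gave the same sign about as often as not, and a ratio here is that of the row, which need not be that of the gene's transcript.

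**Figure D2:**
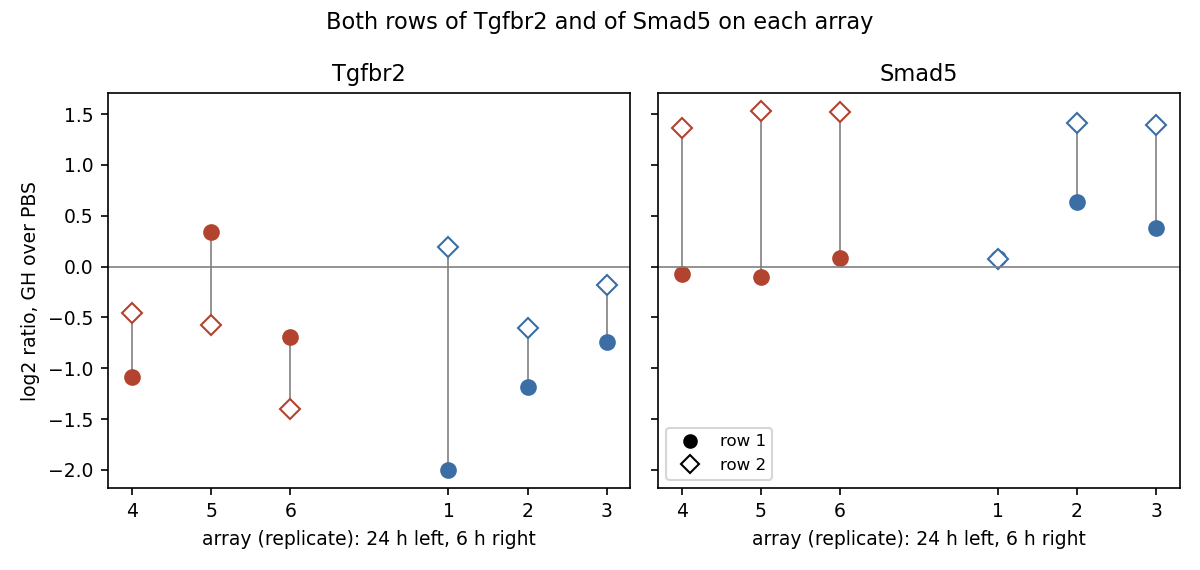
Log2 ratio of GH over PBS (vertical axis) for row 1 (filled circles) and row 2 (open diamonds) of Tgfbr2 and of Smad5 on each array, with 24 hours on the left and 6 hours on the right of each panel, and a grey line joining the rows of an array. The Smad5 rows differ on 5 of 6 arrays and coincide on replicate 1, while the order of the Tgfbr2 rows changes between arrays.

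Smad9 encodes the third SMAD of the BMP branch, also called SMAD8, a weaker activator of BMP targets than SMAD1 and SMAD5. Its row, annotated through an EST, had log2 ratios of -2.84, -1.69 and -3.18 at 24 hours and -2.32, -1.03 and -3.47 at 6 hours. The 6 arrays spanned more than 2 log2 units, from -3.47 to -1.03, all below 0, and the times overlapped. The means were -2.57 ± 0.78 and -2.28 ± 1.22 (SD, n = 3 each), or 5.94-fold and 4.84-fold lower with GH. Only 0.124% of tested rows were lower at 24 hours and 0.031% at 6 hours. Smad9 thus had the lowest ratio of the members at both times and, among them, the largest spread between arrays.

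Msx2, a homeobox gene induced by BMPs in bone and skull, had log2 ratios of 0.84, 1.16 and 1.98 at 24 hours. At 6 hours it had 0.41 and 0.60 on replicates 2 and 3 and no value on replicate 1. The 3 arrays at 24 hours lay above both arrays at 6 hours. The means were 1.33 ± 0.59 (SD, n = 3) at 24 hours and 0.51 ± 0.14 (SD, n = 2) at 6 hours, or 2.51-fold and 1.42-fold higher with GH. It was the only 1 of the 8 member rows whose times did not overlap, and 9.65% of all tested rows did not overlap either, so this is not rare in these arrays. Most tested rows (17414 of 19326) had 3 values at each time, and the fewer values of Msx2 separate more easily.

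The difference between the times, 24 minus 6 hours, was tested for every row with limma, which shares the spread over both times, with Benjamini-Hochberg adjustment over all 19326 rows. None of the 8 member rows passed an adjusted p of 0.05 (adjusted p = 0.980 to 0.982). Over all rows 0 passed (0%), with 585 at an unadjusted p under 0.05 in limma. The largest differences with all arrays were those of Tgfbr2 row 1 (0.83 ± 0.47, SE) and Msx2 (0.82 ± 0.37). The 95% interval of Msx2 ran from -0.12 to 1.75 and that of Tgfbr2 row 1 from -0.30 to 1.95. Tgfbr2 row 2 differed by -0.61 ± 0.33 (-1.40 to 0.18), Smad5 row 2 by 0.51 ± 0.38 (-0.41 to 1.43) and Smad5 row 1 by -0.40 ± 0.20 (-0.87 to 0.08). Smad9 (-0.30 ± 0.68, -1.92 to 1.33), Acvr1 (0.25 ± 0.31, -0.50 to 1.00) and Bmp2 (0.06 ± 0.15, -0.30 to 0.42) differed by less than their standard error. Single arrays set much of these values. Without replicate 1 the difference of Smad5 row 2 was 0.06 ± 0.17, that of Acvr1 0.06 ± 0.32 and that of Tgfbr2 row 1 0.48 ± 0.46. Without replicate 5 Tgfbr2 row 1 had 0.42 ± 0.41. This was smaller in size than the differences that Msx2, Smad9, Tgfbr2 row 2, Smad5 row 2 and Acvr1 then had. Without replicate 6 Msx2 had 0.49 ± 0.24 and Tgfbr2 row 2 had -0.32 ± 0.28. Without replicate 2 Smad5 row 1 had -0.26 ± 0.21 and Acvr1 had 0.53 ± 0.28. For Smad9 the range with 1 array left out was -0.90 (without replicate 3) to 0.33 (without replicate 2). The sign of the Acvr1 and Smad9 differences changed when the arrays were put on 1 scale. These intervals were wide, and apart from those of Smad5 row 1 and Bmp2 all reached beyond 1 log2 unit on at least 1 side.

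**Figure D3:**
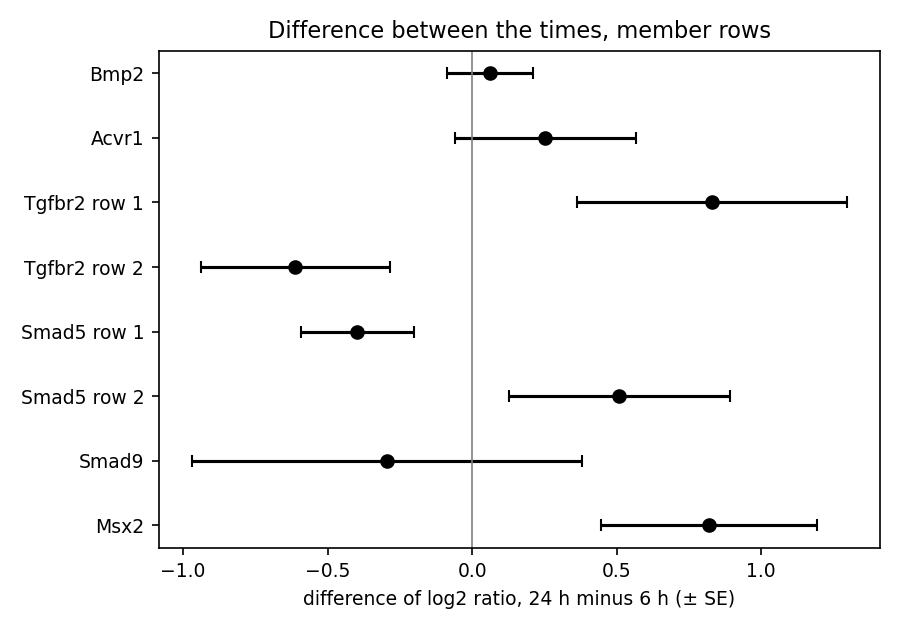
Difference of the log2 ratio of GH over PBS between 24 and 6 hours (horizontal axis, 24 minus 6 hours) for the 8 member rows, as points with moderated standard errors. Msx2 and row 1 of Tgfbr2 lie farthest above 0, at 0.82 and 0.83, and no row passed the adjusted threshold.

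Facts of the arrays bear on these values. Log2 ratios of replicate 1 had the smallest spread (SD 0.466, against 0.676 to 0.913 on the others), and over rows its r with each of the rest was 0.223 to 0.359, where the 10 other pairs had 0.556 to 0.817. Rows are not independent replicates, so these coefficients only describe the profiles. By the scan file prefix in the labels, replicates 4 and 6 form a set apart from the other 4 arrays. In 4 of the 8 member rows replicate 5, the 24-hour array of the other prefix, lay nearer 0 than both replicates 4 and 6, and in 2 it lay between them. This was not counted over all rows, so it is not shown to be particular to the members. Over all rows replicate 5 also had the smallest SD of the 24-hour arrays (0.676, against 0.767 and 0.913). Osteoblast genes had 3 tested rows, with a mean of 0.02, -0.24 and -0.29 on replicates 4 to 6 and -0.14, 0.08 and -0.04 on replicates 1 to 3, and 0 passed. Among 9 tested rows of 7 neutrophil lineage genes 1 was above 0 at 24 hours and 1 at 6 hours. Their mean was -1.57, -0.68 and -0.83 on replicates 4 to 6 and -0.05, -0.61 and -0.90 on replicates 1 to 3, and 4 passed at 24 hours and 0 at 6 hours. All 8 tested rows of skeletal muscle genes were above 0 at both times, with a mean of 0.91, 0.13 and 0.28 on replicates 4 to 6 and 0.12, 0.60 and 1.17 on replicates 1 to 3, and 0 passed. Of 4 osteoclast rows 2 passed at 24 hours and 0 at 6 hours, and of 3 B lineage rows 1 passed at each time. Over all rows 21.3% passed at 24 hours and 3.38% at 6 hours, and these marker lists hold few rows. The chondrocyte, erythroid, endothelial and adipocyte lists had 1 to 4 tested rows each, of which 0 passed at either time, and since the table holds ratios, it does not show which cell types were present. The part of these cell types in the ratios of the 6 genes was not tested. In bulk bone, fewer cells of a type and less RNA per cell cannot be told apart.

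The other genes of the pathway were taken as a list of 107 textbook members by role, of which 52 had a tested row, 70 rows in all. At 24 hours 8 of the 70 rows rose and 4 fell with GH (adjusted p under 0.05 in limma), or 17.1%, against 21.3% of all rows tested (12.4% higher and 8.87% lower). At 6 hours 0 rose and 1 fell (1.43%), with 14 of the 70 at an unadjusted p under 0.05, against 3.38% of all rows (2.75% higher and 0.636% lower; after quantile normalization 1544 of 2232 calls were higher, beside 531 of 654). The list's median was -0.12 at 24 hours and -0.04 at 6 hours. The share called in either direction was below that of all rows at both times, although at 6 hours the list's share rests on 1 row, and its share of lower calls was above the 0.636% of all rows. These counts rested on few arrays. At 24 hours 0 rows were called without replicate 6 (13 at an unadjusted p under 0.05 in limma) or without replicate 4 (17 unadjusted). There were 3 of 67 without replicate 2, 3 of 66 without replicate 3, and 5 without replicate 5. Calls over all rows fell too, to 2374 of 18022 without replicate 2, 2114 of 17886 without replicate 3 and 0 without replicate 6. The loss is thus not particular to the pathway. The 1 call at 6 hours, Map3k7 row 3, was lost without replicate 1, 2, 3, 4 or 6 and held without replicate 5. In the difference 0 of 70 passed, with 1 at an unadjusted p under 0.05. The rows with the smallest p of their role in the difference were Gdf10 (0.36 ± 0.19), Acvr2a (0.43 ± 0.33), Smad1 row 1 (-0.24 ± 0.19), Thbs1 row 1 (-0.57 ± 0.31), Map3k7 row 3 (0.24 ± 0.21) and Ccn2, each with an adjusted p of 0.980 in limma. Thbs1 encodes thrombospondin 1, which activates latent TGF-beta.

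Among 17 rows of 14 other ligands 2 rose and 1 fell at 24 hours. Beside the counts by role, here and below, 21.3% of all rows were called at 24 hours and 3.38% at 6 hours. Gdf10, of the BMP family, rose by 0.59 ± 0.13 (log2, SE; adjusted p = 0.0299, limma, here and below). Lefty1, an inhibitor of Nodal, rose by 0.75 ± 0.20 (adjusted p = 0.0429). Row 2 of Tgfb2, the gene of a TGF-beta ligand, had -0.71, -1 and -2.56 at 24 hours and 0.26, -0.56 and -1 at 6 hours. It fell at 24 hours, by 1.42 (SE 0.39, adjusted p = 0.0478), but had -0.86 without replicate 6 (adjusted p = 0.17), while row 1 had -0.07 ± 0.11 and did not pass. At 6 hours 0 of the 17 passed, and Lefty1 came nearest (0.53 ± 0.20, adjusted p = 0.154).

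No row of another receptor passed at either time, of 13 rows of 9 genes. Row 2 of Bmpr1a, the gene of a BMP type I receptor like Acvr1, had -1.54 ± 0.46 at 24 hours (adjusted p = 0.0588). On the arrays it lay at -0.34, -1.32 and -2.94 at 24 hours and -1.52, -1.29 and -0.58 at 6 hours, all below 0. Row 3 of Bmpr1a had -0.75 ± 0.38 at 24 hours and -0.84 ± 0.38 at 6 hours, with 0.33 on replicate 1. Row 1, with a value on 1 array of each time and so not tested, lay above 0. It had 0.51 on replicate 4 and 0.42 on replicate 3. Acvr2a, a type II receptor for activins and BMPs, had -1.06 ± 0.25 at 6 hours (adjusted p = 0.0826) and -0.63 ± 0.21 at 24 hours.

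None of the 4 rows of 3 other SMADs passed, and their fitted ratios stayed between -0.30 and 0.19 at both times. Single arrays spread more widely, as for Smad4, from -0.58 to 0.34. Smad4, the shared partner of all receptor-activated SMADs, had -0.30 ± 0.19 at 24 hours (adjusted p = 0.273). Smad1, the nearest relative of Smad5 and Smad9, had -0.10 ± 0.13 at 24 hours and 0.14 ± 0.13 at 6 hours in row 1 (adjusted p = 0.601 and 0.530), and -0.03 and 0.07 in row 2. Of the 3 SMADs of the BMP branch, Smad1 had fitted ratios from -0.10 to 0.14 over both rows. Smad9 was far below 0 in its 1 row, and Smad5 was far above 0 in 1 row of 2. Smad5 and Smad9 had been chosen on such ratios and Smad1 had not, so this contrast is a description only.

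Of 13 rows of extracellular modulators 2 rose at 24 hours. Fstl3, which binds and blocks activins, rose by 0.59 ± 0.13 (adjusted p = 0.03) and had 0.61 ± 0.13 at 6 hours (adjusted p = 0.0608). Row 2 of Ltbp1, which tethers latent TGF-beta to the matrix, rose by 0.78 ± 0.19 (adjusted p = 0.0349), while row 1 had 0.10 ± 0.17. Of 13 rows of intracellular regulators 2 rose and 3 fell at 24 hours (38.5%, beside 21.3% of all rows). Of these 5 rows 3 were of Map3k7, the gene of the kinase TAK1, and they differed in sign. Rows 1 and 3 of Map3k7 fell, with -0.81 ± 0.15 and -0.59 ± 0.15 (adjusted p = 0.0203 and 0.0383), and row 2 rose by 1.04 ± 0.22 (adjusted p = 0.0389, values on 2 arrays a time). At 6 hours row 3 fell (-0.82 ± 0.15, adjusted p = 0.0441). Tgif2, a corepressor of SMADs, fell by 0.64 at 24 hours (SE 0.17, adjusted p = 0.0419). The remaining row, Smurf2, a ubiquitin ligase for SMADs and receptors, was named after its value was seen and rose by 0.48 ± 0.13 (adjusted p = 0.0461).

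Of 10 rows of 9 other target genes 2 rose at 24 hours and 0 fell. Msx1, the close relative of Msx2, had 0.61, 1.11 and 1.13 at 24 hours and -0.45, 0.51 and 0.54 at 6 hours. It rose at 24 hours (0.95 ± 0.23, 1.93-fold, adjusted p = 0.0347) and had 0.20 ± 0.23 at 6 hours (adjusted p = 0.610). Ccn2, the connective tissue growth factor gene that TGF-beta induces, had 1.22, 0.68 and 0.52 at 24 hours and 0.04, -0.12 and -0.74 at 6 hours. It rose at 24 hours (0.80 ± 0.20, 1.75-fold, adjusted p = 0.0398) and had -0.27 ± 0.20 at 6 hours (adjusted p = 0.425). Its difference between the times was 1.08 ± 0.29, the 1 row of the list at an unadjusted p under 0.05, with an adjusted p of 0.980. Together with Gdf10, these made 3 of 70 rows in which all arrays at 24 hours lay above all those at 6 hours, and 0 lay below, beside the 9.65% of all rows given above. Row 2 of Dlx3, a homeobox gene, had -0.48 ± 0.15 at 6 hours (adjusted p = 0.113) and row 1 had 0.19 ± 0.13.

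**Figure D4:**
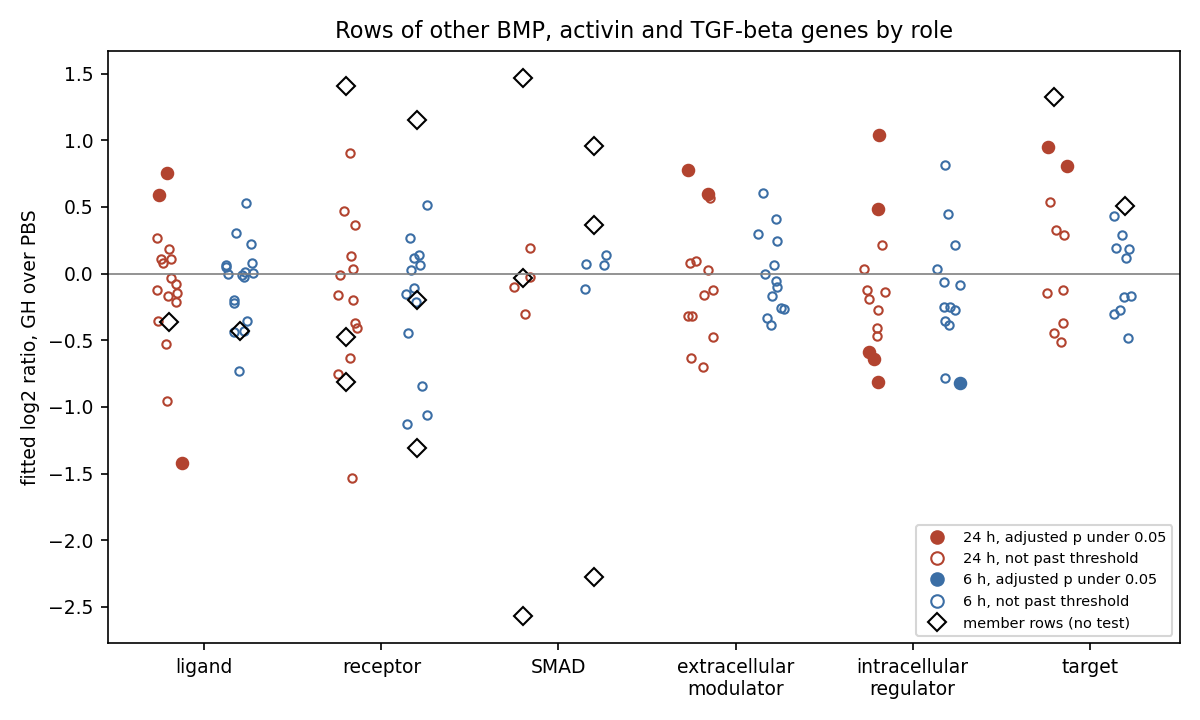
Fitted log2 ratio of GH over PBS (vertical axis) for the 70 rows of other BMP, activin and TGF-beta genes by role (circles, filled where the adjusted p was under 0.05), 24 hours left of 6 hours, with the 8 member rows as open black diamonds that were not tested. Filled circles number 12 at 24 hours and 1 at 6 hours, and no other SMAD lies beyond -0.30 to 0.19.

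The rows most like each complete member row were found by the root mean square difference of the log2 ratio over the 6 arrays, among 10416 or 10417 rows with a single symbol. Vangl1 was nearest to Bmp2, at 0.0556, and Usp5 next, at 0.071. Abca5 (0.147) and Plod1 (0.17), the gene of a collagen lysyl hydroxylase, were nearest to Acvr1. For the Tgfbr2 rows these were Slc7a6 (0.393) and Taf1 (0.402) for row 1, and Sestd1 (0.123) and Sik3 (0.125) for row 2. For the Smad5 rows they were Lepr (0.0705) and Adgrl1 (0.132) for row 1, and Spice1 (0.17) and Fip1l1 (0.194) for row 2. Nearest to Smad9, at the largest distances, were Fundc1 (0.916) and Cfap44 (1.04), but Smad9 also had the largest median distance to all rows. The median of all rows ranged from 0.51 for Smad5 row 1 to 2.54 for Smad9. All members share the same 6 arrays with these rows, and the likeness of 6 values is a description.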

How the data were processed

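The table that the authors deposited holds log2 ratios, with 21446 rows, of which 17414 are complete. Spot extraction, background correction and normalization were not given in the sources used here, and no intensities were used, so signal over background is unknown. Per the labels' protocols, total RNA was amplified from an oligo(dT) primer and labelled with Cy5 (GH) or Cy3 (PBS). The design text says that pools held different animals, so the spread holds animal and technical variation.

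Gene names came from the platform annotation (11813 rows with 1 symbol, 559 with several, 9074 with none; 0 of those with several held a member). Each row was fitted alone with limma 3.58.1 in R 4.3.3 (lmFit and eBayes, checked on simulated data), with 1 mean per time over 6 arrays, for the 19326 rows measured on 2 or more arrays of each time. A complete row had 4 residual degrees of freedom, with 2.46 prior ones. P-values were two-sided and adjusted over all rows by Benjamini-Hochberg, with a threshold of 0.05. Errors are moderated SEs unless called SD. Permuting 3 arrays against 3 cannot give a p below 0.1.

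The members, the pathway and marker lists and the alternatives were chosen with earlier results of these data known. Of each role, the text names up to 4 rows past the threshold per comparison (smallest p first), or the row with the smallest p where none passed, and the 2 rows most like each complete member row. Alternatives were gene averages, other scaling, filters and weights, the scan file prefix, each time alone and each array left out. Promoters are from RefSeq (GRCm38.p6).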

Additional observations from a re-analysis of the deposited data

How the results depend on the processing

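No paired analysis was possible because the arrays of the 2 times share no replicate number. Gene averages gave no value for single rows, so the member rows were recomputed under at most 14 of the 15 alternatives (13 for the difference, and 11 and 10 for Msx2, which lacks replicate 1). There 301 values of the 8 member rows kept their sign and stayed within 1 SD (or, for the difference, short of the threshold). Of the rest 6 moved by more and 12 changed sign, and 0 differences passed. Many of the 301 could not change and so do not show stability. The filters, fitting each time alone and leaving out an array of the other time keep a row's mean at a time as it was. The prefix likewise keeps the 6-hour mean. Tgfbr2 row 1 had 0.345 at 24 hours with the prefix of the scan file as covariate, when replicate 5 alone sets that ratio. Tgfbr2 row 2 at 6 hours ran from -0.392 (without replicate 1) to 0.002 (without replicate 2), and Smad5 row 1 at 24 hours from -0.089 (without replicate 6) to 0.005 (without replicate 5). The difference of Acvr1 was -0.047 with arrays scaled to 1 median absolute deviation, -0.001 after quantile normalization, -0.033 with array weights and -0.166 with the prefix. That of Smad9 was 0.32, 0.266 and 0.585 with scaling, quantiles and the prefix, and ran from -0.895 (without replicate 3) to 0.328 (without replicate 2), with 0.012 without replicate 6. The cause was not tested.

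The count of all rows at 24 hours was 30 with the prefix and 2707 with each time fitted alone, and ran from 0 (without replicate 6, with 4781 at an unadjusted p under 0.05 in limma) to 4961 (without replicate 1). At 6 hours it was 2016 with scaling, 2232 after quantile normalization, 7307 with array weights and 0 with 6 hours fitted alone (4953 unadjusted). It ran from 0 (without replicate 2, 3 or 4) to 1727 (without replicate 1). Of the 70 other pathway rows, those called at 24 hours numbered 3 with scaling (2876 of all 19326 rows) and 4 after quantile normalization (3183 of all). They numbered 3 with 24 hours fitted alone (2707 of all), and 0 (without replicate 4 or 6) to 16 of 69 (without replicate 1). At 6 hours they numbered 0 of 52 with gene averages (9 unadjusted, beside 603 of 16678 called over the array). They numbered 0 of 70 with 6 hours fitted alone (13 unadjusted) and 5 of 70 with scaling or quantile normalization. Complete rows gave 2 of 66 (561 of all 17414), the prefix 2 of 68 (623 of all 18591) and array weights 24 of 70 (7307 of all 19326). With a replicate left out there were 0 to 2. Among the recomputed values of the pathway rows named, 0 changed sign, 91 lost a call and 8 gained one. Here too many values could not change sign, for the reason given above. All 13 calls were lost under at least 3 alternatives each. With array weights 3922 of the 7307 calls at 6 hours were higher. In the difference 0 rows passed under any alternative that tested it.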
